A study of Mus musculus with 30 samples.

Results

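The genes that load and display peptides on major histocompatibility complex (MHC) class II were followed through 3 cell populations of mouse 4T1 tumours and through an antibody treatment. The 9 genes, of 55401 measured, were taken by name: H2-Aa, H2-Ab1 and H2-Eb1 for the classical chains, Cd74 for the invariant chain, H2-DMa and H2-DMb1 for the peptide editor H2-DM, H2-Oa and H2-Ob for H2-O, and Ciita. In the mice given the control antibody, 7 of the 9 were higher in the 4T1 sort than in CD8+ T cells, by 1.05 to 2.42 on the log2 scale, in a comparison where 20.1% of all genes tested were called higher. That count was 6 or 7 when 1 library was left out. None of the 9 passed the test between C269 and control antibody in any population, where over all genes 0% were called in 4T1, 0% in CD4 and 0.00914% in CD8.

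The study measured RNA from 4T1-GFP cells sorted from tumours and from CD4+ and CD8+ T cells taken out with magnetic beads, in mice that received either a control IgG1 (CTRL) or the antibody C269, which binds eNAMPT, the extracellular form of the enzyme NAMPT. The 3 populations and 2 antibodies made 6 groups of 5 libraries, named by population and antibody (4T1 CTRL, CD8 C269 and so on). C269 was dosed at 2.5 mg/kg, with 2 doses per week over 1 month. 4T1 is a transplantable mouse mammary carcinoma line, here carrying green fluorescent protein, and all samples were labelled wild-type and tumour tissue. The sources used here do not give the strain or age of the mice, the purity of the populations or whether the 5 libraries of a group came from separate animals. The spread behind each p-value is thus that between libraries, which may be technical. In bulk RNA, fewer cells of a type and less RNA per cell cannot be told apart.

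Class II molecules are alpha and beta chain pairs that present peptides from endocytosed proteins to CD4+ T cells. In mice they are I-A (H2-Aa with H2-Ab1) and I-E (H2-Ea with H2-Eb1). New pairs bind the invariant chain CD74, which cathepsins trim in endosomes to a short peptide that H2-DM then exchanges for antigenic peptides, and H2-O, made mostly by B cells, inhibits H2-DM. CIITA, a co-activator without DNA binding of its own, switches class II genes on through factors at the X and Y boxes of promoters. B cells, dendritic cells and macrophages express class II constitutively or readily, while mouse T cells express little, and many other cells can be induced by interferon-gamma.

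All 7 H2 genes lay on mouse chromosome 17 between 34092340 (start of H2-Oa) and 34316674 (end of H2-Eb1) and Ciita on chromosome 16 (10480059 to 10528418, + strand), in GRCm38 with the GENCODE M21 annotation. Promoter windows of 300 bases (250 before to 50 after the transcription start, RefSeq, GRCm38.p6) were matched for 6 of the 9 genes, and no window was used for H2-Ab1, Cd74 and Ciita. Both strands were searched for the Y box core TGATTGG and for the X box core GCAAC lying 15 to 30 bases ahead of it on the same strand. The Y core was in the windows of H2-Aa, H2-Eb1, H2-Ob, H2-Oa and H2-DMb1 and in neither window of H2-DMa, against 7.82% of 32851 windows of that length. The pair of cores was in H2-Aa, H2-Eb1, H2-Ob and H2-Oa, against 0.164% of windows. A stretch of 3 of these is shown, with the X and Y cores in capitals, because H2-Aa, H2-Eb1 and H2-Ob share this layout while their RNA levels part in the libraries described further on. The stretches lie at chr17:34287862-34287909 (H2-Aa, minus strand), chr17:34305771-34305817 (H2-Eb1, plus strand) and chr17:34238813-34238857 (H2-Ob, plus strand).
H2-Aa: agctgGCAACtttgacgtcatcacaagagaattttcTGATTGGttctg
H2-Eb1: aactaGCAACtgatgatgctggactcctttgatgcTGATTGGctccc
H2-Ob: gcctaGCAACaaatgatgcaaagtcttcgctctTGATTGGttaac
The Y core began 50 bases before the start of H2-Aa, 61 before that of H2-Eb1 and 59 before that of H2-Ob, with 26, 25 and 23 bases between the cores. These are letter matches and not measured binding.

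Libraries held 2005579 to 5176494 gene counts, and levels are given as CPM, a gene's count relative to its library's total. Summed over 10 T cell genes, CD4 and CD8 libraries held 1564 to 6032 CPM and the 4T1 libraries 14.5 to 512. Summed over 8 epithelial genes, 4T1 CTRL libraries held 228 to 577 CPM, a range that overlapped that of CD4 CTRL (214 to 341), while neutrophil genes summed to 3911 to 13907 CPM in 4T1 CTRL. 2 of the 5 4T1 C269 libraries, numbers 9 and 10, stood apart from the other 8 4T1 libraries. Their epithelial sums were 5651 and 5447 CPM (228 to 1610 in the other 8), their neutrophil sums 369 and 374 (2989 to 13907) and their macrophage and monocyte sums 607 and 503 (1179 to 8178). Tests of the 9 genes and medians of gene lists that rest on 4T1 C269 are therefore given with and without them. Single marker and pathway genes are given with them.

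Group means per kilobase of exon ordered the 9 genes in the same tiers in all 6 groups. Cd74 and the classical chains took ranks 1 to 4, H2-DMb1 rank 5, H2-DMa rank 6, H2-Oa rank 7, and H2-Ob and Ciita the last 2 ranks. In 4T1 CTRL the means per kilobase were 791 ± 505 CPM for Cd74 (SD, n = 5), 622 ± 387 for H2-Eb1, 599 ± 434 for H2-Aa, 448 ± 263 for H2-Ab1 and 114 ± 69.6 for H2-DMb1. The next were 42.5 ± 25.3 for H2-DMa, 14.5 ± 19.8 for H2-Oa, 6.23 ± 7.11 for H2-Ob and 5.20 ± 3.16 for Ciita. Neighbours among the first 4 lay within each other's SD, as did H2-Ob and Ciita. H2-Ob also lay within the SD of H2-Oa, which was at 0 in libraries 2 and 5, where H2-Ob was at 2.69 and 0.708. The lower ranks depend on the exon lengths used. By CPM alone, Ciita (49.6) was above H2-Ob (33.5) and H2-Oa (20.4) in 4T1 CTRL. H2-DMa (71.9 CPM) was above H2-DMb1 (56.8 CPM) in CD8 CTRL. In CD8 CTRL the first 4 were H2-Eb1 (204 ± 30.2 CPM per kilobase), Cd74 (189 ± 64.4), H2-Aa (163 ± 32.1) and H2-Ab1 (139 ± 28.5), again with neighbours within their SD, and Ciita was last at 1.03 ± 0.546. Cd74 was first in both 4T1 groups and in CD4 C269 and rank 3 in CD8 C269 (149 ± 26.9).

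**Figure D1:**
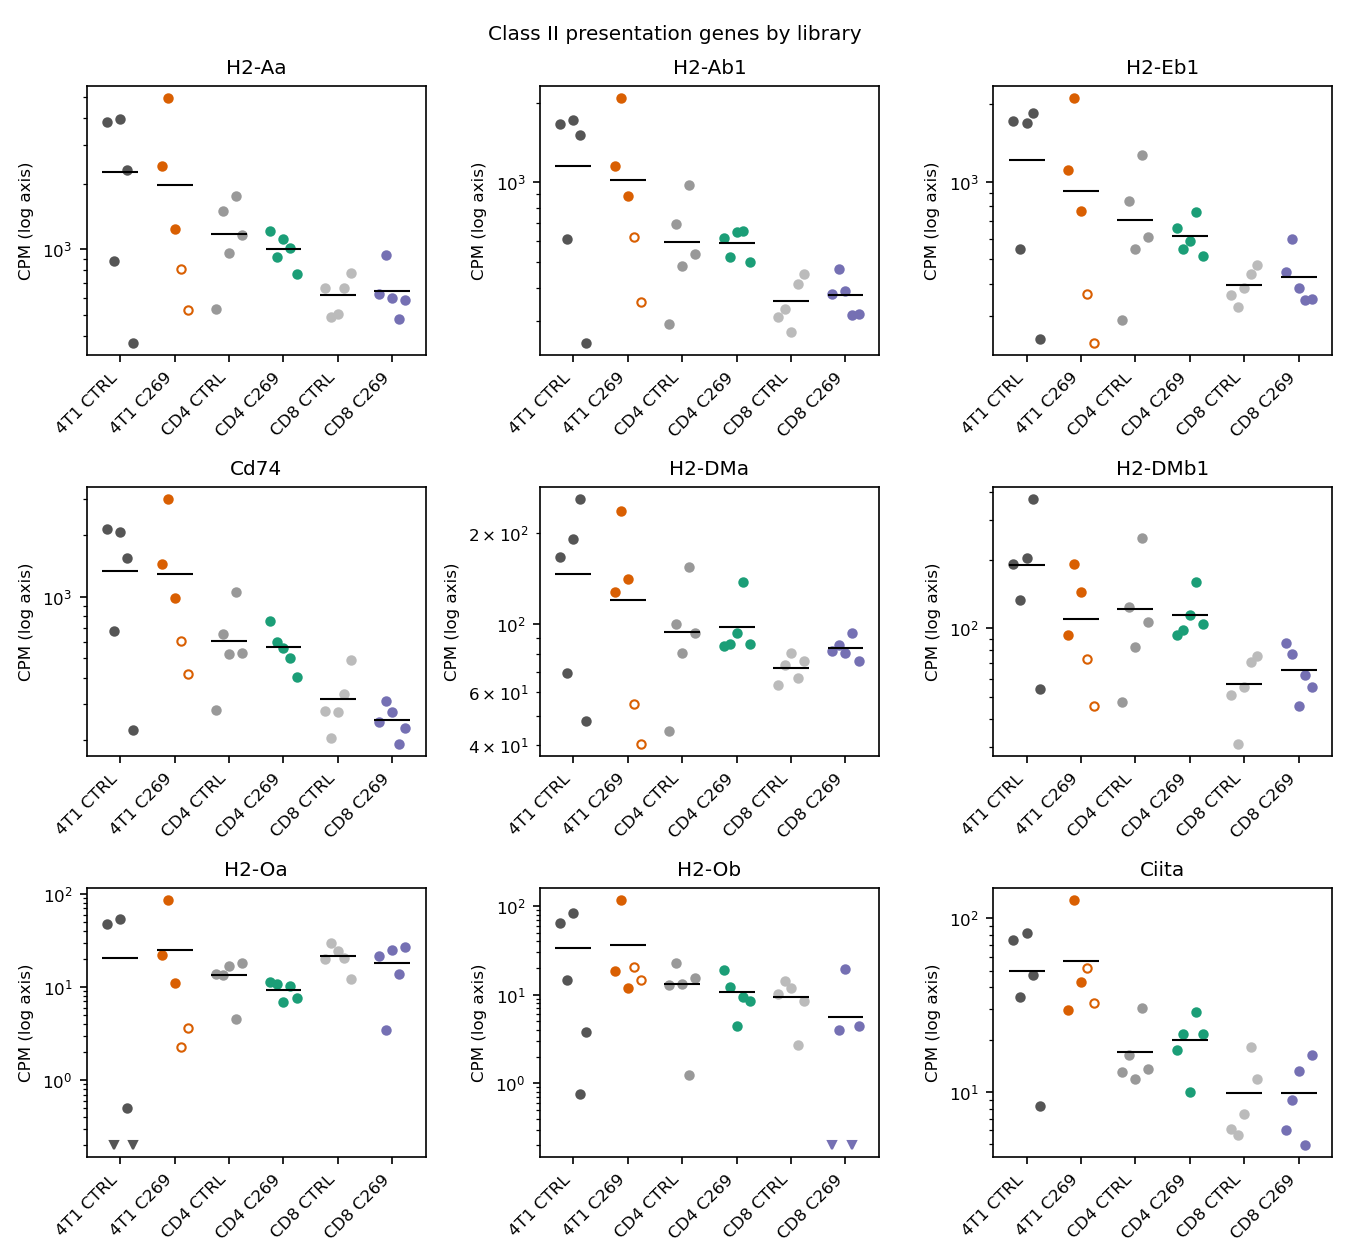
CPM of each of the 9 class II genes (1 panel each, log axis) in the 30 libraries by group. Points are libraries, black bars are group means, open circles are libraries 9 and 10, and downward triangles at the foot mark a value of 0. H2-Aa runs from 371 to 4935 CPM over the 4T1 libraries and from 479 to 943 over the CD8 libraries.

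The classical chains, which form the peptide groove, varied most between libraries in the 4T1 sort. H2-Aa, the alpha chain of I-A, was at 3841, 881, 3969, 2313 and 371 CPM in the 5 4T1 CTRL libraries. It was at 532, 1506, 957, 1747 and 1165 CPM in CD4 CTRL and at 663, 487, 506, 667 and 776 in CD8 CTRL. Libraries 1, 3 and 4 were above all 10 T cell control libraries, while library 5, the lowest, was below all of them, so the groups overlapped. H2-Ab1, the beta chain of I-A, had the same order of libraries within 4T1 CTRL, at 1656, 613, 1725, 1514 and 247 CPM, and was at 291 to 981 in CD4 CTRL and 273 to 450.3 in CD8 CTRL. H2-Eb1, the beta chain of I-E, was at 1719.7, 545, 1693, 1842 and 244 CPM in 4T1 CTRL, 290.04 to 1273 in CD4 CTRL and 325 to 472 in CD8 CTRL. In all 3 chains library 5 was the lowest 4T1 control and library 2 the next lowest.

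Against CD8 CTRL, all 3 classical chains were higher in 4T1 CTRL. The log2 fold changes (edgeR's quasi-likelihood test, Benjamini-Hochberg adjusted over all genes) were 1.94 ± 0.52 for H2-Aa (SE, n = 5 against 5, adjusted p = 0.0122), 1.74 ± 0.43 for H2-Ab1 (adjusted p = 0.00795) and 1.65 ± 0.45 for H2-Eb1 (adjusted p = 0.0124). Against CD4 CTRL, the values were above 0 and did not pass the adjusted test: 1.06 ± 0.55, 1.05 ± 0.46 and 0.87 ± 0.50 (adjusted p = 0.252, 0.176 and 0.308). Between the T cell populations, H2-Aa was lower in CD8+ than in CD4+ control cells, with a log2 fold change of −0.83 ± 0.24 (adjusted p = 0.0172), and this call was kept when each of the 10 libraries was left out in turn (adjusted p up to 0.0469). It was lost in the fit of all 30 libraries (−0.84, adjusted p = 0.394). H2-Ab1 (−0.65 ± 0.23, adjusted p = 0.0564) and H2-Eb1 (−0.74 ± 0.26, adjusted p = 0.0503) were just outside the threshold of 0.05 in edgeR and inside it in DESeq2.

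Cd74, the chaperone that occupies the groove until peptide loading, was at 2144, 678, 2052, 1539 and 224 CPM in 4T1 CTRL. The values were 282, 660.4, 523, 1057 and 533 CPM in CD4 CTRL and 278, 205, 273, 337 and 491 in CD8 CTRL. Its libraries ranked much as for H2-Aa, with 1, 3 and 4 highest and 5 lowest in the 4T1 sort, and library 14 highest and 11 lowest in CD4 CTRL. Cd74 was higher in 4T1 than in CD8 CTRL by 2.12 ± 0.50 on the log2 scale (adjusted p = 0.00593), the second largest difference of the 9 after Ciita. It was lower in CD8 than in CD4 CTRL, at −0.84 ± 0.27 (adjusted p = 0.0337), a call kept in 4 of the 10 fits that left out 1 library and lost in DESeq2 (adjusted p = 0.0729) and in the fit of all 30 libraries (adjusted p = 0.338). Against CD4 CTRL the 4T1 value was 1.24 ± 0.51 (unadjusted p = 0.0317, adjusted p = 0.152).

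The editor H2-DM has an alpha chain, H2-DMa, and a beta chain from the neighbouring, closely related genes H2-DMb1 and H2-DMb2, so reads may have been split between the latter pair and their single values are uncertain. H2-DMa was at 167, 68.995, 191, 258 and 48.1 CPM in 4T1 CTRL, 44.6 to 154 in CD4 CTRL and 63.2 to 80.8 in CD8 CTRL. H2-DMb1 was at 192, 133, 205, 371 and 54.02 CPM in 4T1 CTRL, at 47.4, 124, 82.7, 251 and 106 in CD4 CTRL and at 50.9, 30.8, 55.4, 70.8 and 75.8 in CD8 CTRL. Here library 4, and not 1 or 3, was the highest of the 4T1 controls, and library 14 the highest of CD4 CTRL. H2-DMb1 was higher in 4T1 than in CD8 CTRL by 1.77 ± 0.40 (adjusted p = 0.00448) and lower in CD8 than in CD4 CTRL, at −1.003 ± 0.33 (adjusted p = 0.0358). The second of these calls was kept in 5 of 10 fits that left out 1 library, and without library 14 the value was −0.62 (adjusted p = 0.0856). DESeq2 (adjusted p = 0.0815) and the fit of all 30 libraries (adjusted p = 0.138) did not call H2-DMb1 there. H2-DMa was higher in 4T1 than in CD8 CTRL by 1.05 ± 0.37 (adjusted p = 0.0427), a call kept in 2 of 10 such fits, with an adjusted p up to 0.109. Its CD8 against CD4 value was −0.29 ± 0.22 (adjusted p = 0.373).

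H2-O, the inhibitor of H2-DM, had another order of libraries than the classical chains. H2-Oa was at 47.3, 0, 54.2, 0.502 and 0 CPM in 4T1 CTRL, 13.8, 13.5, 16.6, 4.501 and 18.2 in CD4 CTRL and 19.96, 29.99, 24.6, 20.4 and 12.2 in CD8 CTRL. The 4T1 controls parted into libraries 1 and 3, above every T cell control, and libraries 2, 4 and 5, at or near 0 (the counts of 0 in libraries 2 and 5 allow up to 1.28 and 1.04 CPM, taking 3 counts as the limit). H2-Ob was at 63.9, 14.5, 84.7, 0.753 and 3.81 CPM in 4T1 CTRL, 12.99, 23.01, 13.3, 1.25 and 15.6 in CD4 CTRL and 10.2, 14.1, 11.98, 2.69 and 8.58 in CD8 CTRL, again with libraries 1 and 3 highest. Neither chain passed the test between populations. For 4T1 against CD8 CTRL, H2-Oa gave 0.07 ± 1.10 (adjusted p = 0.968) and H2-Ob 1.91 ± 0.92 (adjusted p = 0.123), the latter called without library 4 (2.23, adjusted p = 0.0349). H2-Oa alone of the 9 had a CD8 against CD4 value above 0, at 0.75 ± 0.34 (adjusted p = 0.126), and H2-Ob gave −0.396 ± 0.53 (adjusted p = 0.641).

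Ciita, which encodes the co-activator CIITA, was at 75.3, 35.3, 81.98, 47.2 and 8.31 CPM in 4T1 CTRL. The T cell controls were at 12.99, 16.2, 11.9, 30.3 and 13.6 CPM (CD4 CTRL) and 6.14, 5.66, 7.49, 18.1 and 11.8 CPM (CD8 CTRL). Library 5 of 4T1 CTRL lay within the CD8 CTRL range and below that of CD4 CTRL, and the other 4 were above both. Its difference between 4T1 and CD8 CTRL was the largest of the 9, at 2.42 ± 0.54 on the log2 scale (adjusted p = 0.00428). Against CD4 CTRL it was 1.67 ± 0.49 (adjusted p = 0.0537), outside the threshold in edgeR and inside it in DESeq2 (1.69, adjusted p = 0.00967). Leaving out library 5 or library 14 also brought it inside (1.93, adjusted p = 0.00526, and 1.96, adjusted p = 0.0443). Between CD8 and CD4 CTRL the value was −0.71 ± 0.36 (adjusted p = 0.172).

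Counted over the 9 genes, 7 were called higher in 4T1 than in CD8 CTRL, where 20.1% of 12025 genes were called higher (35.1% in either direction), and DESeq2 also called 7 (32.9% of the genes it tested). The median of the 9 was 1.77 on the log2 scale, against −0.01 for all genes tested. The count was 6 of the 9 without library 1, 3, 21, 22, 23, 24 or 25, and 7 without library 2, 4 or 5. In 4T1 against CD4 CTRL edgeR called 0 of the 9 (8.38% of 12493 genes were called, 4.95% higher), 3 had an unadjusted p under 0.05 (H2-Ab1, Cd74 and Ciita), and DESeq2 called 1 (12.6% of genes). All 9 values were above 0 there, with a median of 1.05 (−0.02 for all genes), and without library 5 the same 3 genes were called: H2-Ab1 (1.31, adjusted p = 0.0421), Cd74 (1.502, adjusted p = 0.0322) and Ciita. In CD8 against CD4 CTRL 3 of the 9 were called lower, where 13.2% of 12109 genes were (23.3% in either direction), with a median of −0.71 (0.02 for all genes). That count was 1 without library 12, 14, 21, 22 or 23, and 5 without library 11 or 25. No gene of the 9 had groups without overlap in these comparisons, which 14.2% of genes did for higher in 4T1 than CD8, 2.92% for higher in 4T1 than CD4 and 12% for lower in CD8 than CD4. The 3 comparisons share control libraries in pairs and are not independent of each other.

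**Figure D2:**
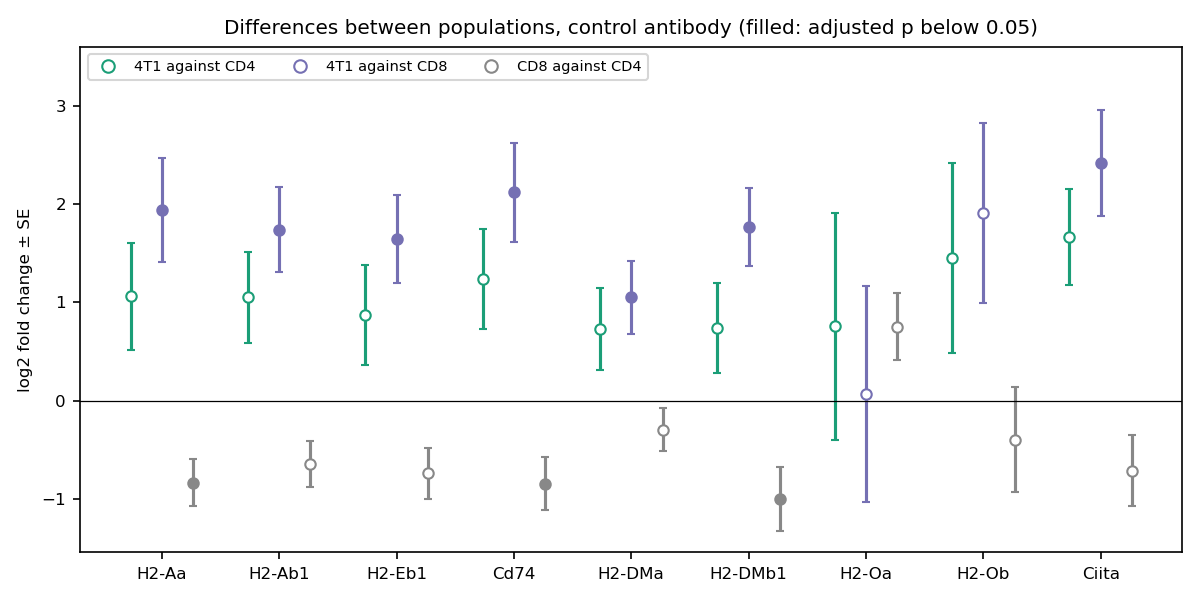
Log2 fold change ± SE (edgeR) of the 9 class II genes between the populations of control mice. Filled points have an adjusted p below 0.05: 7 for 4T1 against CD8, 0 for 4T1 against CD4 and 3 for CD8 against CD4, where H2-Oa alone lies above 0.

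Marker genes of cell types that present antigen, and of other cell types, also differed between the populations. In 4T1 against CD8 CTRL, where 20.1% of all genes were called higher, 7 of 9 tested B cell markers and 7 of 12 macrophage and monocyte markers were. B cell sums over 12 markers were 58.2 to 1739.8 CPM in 4T1 CTRL and 49.5 to 95.9 in CD8 CTRL, and macrophage and monocyte sums were 1348 to 8178 and 787 to 1976. The 8 neutrophil and 6 fibroblast markers were higher too, all 8 and all 6, as were 5 of 6 tested epithelial markers. Of 10 tested dendritic cell markers, 3 were higher and 1 lower, with sums of 168 to 657 CPM in 4T1 CTRL and 598 to 1112 in CD8 CTRL. Ccr7, in that list, is also a T cell gene. In 4T1 against CD4 CTRL, Ebf1 was the single B cell marker of 11 called higher and Cd68 the single macrophage marker of 12. Ebf1 had the highest mean of the B cell list over all libraries, 104 CPM, with Ms4a1 next at 43.1. In 4T1 against CD4 CTRL, 4.95% of all genes were called higher. More neutrophil markers were called higher there (7 of 8), with 2 of 6 fibroblast markers and 0 of 12 dendritic cell markers. The CD4 CTRL sums were 46.5 to 213 CPM for B cells and 1021 to 4224 for macrophages. In CD8 against CD4 CTRL, 8 of 9 B cell markers lay below 0 (median −0.55) and 2 of them, Ebf1 and Ms4a1, were called. Of all genes, 13.2% were called lower there. Of the macrophage and monocyte markers, 11 of 12 lay below 0 there (median −0.45) and 0 were called by edgeR. Called lower in CD8 than in CD4 CTRL were also 5 of 6 fibroblast markers (median −1.81), 5 of 7 epithelial and 3 of 6 neutrophil markers. Of 10 dendritic cell markers, 2 were called lower there, with a median of −0.01. A single epithelial marker was called higher there (1 of 7). No B cell, macrophage or dendritic cell marker was at 0 in all libraries of a group. Cd79a, Cd79b, Ms4a1 and Fcrla were at 0 in library 5, and Cd79a and Blk in library 4. Library 5 still had a B cell sum of 302 CPM, and its fibroblast sum, 53426 CPM, was the highest of 4T1 CTRL. A B cell sum can thus be carried by part of its list. The part of any of these cell types in the class II differences was not tested.

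The rest of the pathway is given by role. Of 8 genes that process antigen in lysosomes, 7 proteases and the thiol reductase Ifi30, 7 were higher in 4T1 than in CD8 CTRL, among them Ctsh (1.697 ± 0.18, adjusted p = 4.90e-05), Ctsl (2.32 ± 0.31, adjusted p = 0.000163) and Ctsz (1.95 ± 0.28, adjusted p = 0.000253). In that comparison 20.1% of all genes were called higher. Against CD4 CTRL, where 4.95% of all genes were called higher, 3 were higher: Ctsh, Ctsd and Ctsz, at 1.03, 1.18 and 1.04. Ctsl, Ctsh, Ctsz and Ifi30, which reduces disulfides of antigens, were lower in CD8 than in CD4 CTRL, from −1.28 to −0.63. There 13.2% of all genes were called lower. The 7 promoter factors that CIITA works with, the RFX and NF-Y subunits and Creb1, held 1 call over the 3 comparisons: Creb1 was lower in 4T1 than in CD8 CTRL (−0.57 ± 0.18, adjusted p = 0.023). Of all genes, 35.1% were called in either direction in 4T1 against CD8, 8.38% in 4T1 against CD4 and 23.3% in CD8 against CD4.

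Of 8 genes on the route from interferon-gamma to Ciita, 3 were called lower in 4T1 than in CD8 CTRL and none higher. Over all genes, 35.1% were called in either direction in that comparison. In CD8 against CD4 CTRL, 2 of the 8 were called higher and 2 lower, where 23.3% of all genes were called. Ifngr1, the ligand-binding receptor chain, was lower in 4T1 than in CD4 CTRL (−1.74 ± 0.26, adjusted p = 0.00222) and than in CD8 CTRL (−2.57 ± 0.26, adjusted p = 3.40e-05). The kinase Jak1 (−1.42) and the feedback inhibitor Socs1 (−2.23) were lower in 4T1 than in CD8 CTRL. Spi1 (PU.1), a myeloid and B cell factor, was the 1 gene of 4 lineage factors called in the 4T1 sort, higher by 1.504 ± 0.35 than in CD4 CTRL (adjusted p = 0.0249) and by 1.97 ± 0.30 than in CD8 CTRL (adjusted p = 0.00039). The ubiquitin ligases Marchf1 (2.199) and Marchf8 (2.66), which remove class II from the surface, and Cd83 (1.81), which opposes Marchf1, were all higher in 4T1 than in CD8 CTRL. Among 4 costimulatory genes, Cd86 was higher in 4T1 than in both T cell controls (1.596 against CD4, 1.204 against CD8) and Cd40 higher than in CD8 CTRL (1.52). Of all genes, 20.1% were called higher in 4T1 than in CD8 CTRL and 4.95% higher than in CD4 CTRL.

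C269 was compared with control antibody within each population. No class II gene was called by edgeR in any of the 3, none had an unadjusted p under 0.05, and DESeq2 called none. None was called in the authors' deposited tables either, where the smallest adjusted p of the 9 was 0.457 in 4T1, 0.962 in CD4 and 0.809 in CD8, and where 4.5%, 0.0876% and 0.0858% of genes were called. Over all genes, edgeR called 0 of 12875 in 4T1 (0%, with 1557 at an unadjusted p under 0.05 and 998 called by DESeq2, 5.64%). In CD4 it called 0 of 12393 (0%, with 697 and 16, 0.0994%), and in CD8 1 of 10943 (0.00914%, with 725 and 15, 0.0627%). No gene of the 9 had groups without overlap. Over all genes 0.924% were higher and 1.37% lower without overlap in 4T1 (2.16% and 2.85% without libraries 9 and 10), 0.379% and 0.331% in CD4, and 0.603% and 0.64% in CD8. A p that misses the threshold does not show that the levels were equal, and the errors below give what these libraries could resolve.

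In the 4T1 sort, C269 libraries spread as widely as the controls. H2-Aa was at 2402, 4935, 1236, 816 and 528 CPM and Cd74 at 1442, 2977, 988, 610.2 and 419 CPM in libraries 6 to 10. Ciita was at 29.6, 127, 42.9, 51.9 and 32.5 CPM, H2-Oa at 21.9, 85.5, 11.02, 2.25 and 3.67 and H2-Ob at 18.7, 117, 11.8, 20.7 and 14.5. Library 7 was the highest for all 5 genes, and every one of their ranges overlapped that of 4T1 CTRL. Over the 5 libraries of each group the log2 fold changes were −0.14 ± 0.76 for H2-Aa, −0.12 ± 0.60 for H2-Ab1, −0.32 ± 0.69 for H2-Eb1, 0.01 ± 0.68 for Cd74, −0.22 ± 0.56 for H2-DMa and 0.21 ± 0.59 for Ciita. H2-DMb1 had the value farthest from 0, at −0.73 ± 0.49 (unadjusted p = 0.164, adjusted p = 0.574 in edgeR), with 93.4, 192, 144, 73.2 and 45.6 CPM against 192, 133, 205, 371 and 54.02 in the controls. H2-Oa and H2-Ob had the widest errors, at 0.28 ± 1.46 and 0.11 ± 1.06.

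Libraries 9 and 10 held low classical chain and H2-DM levels within 4T1 C269, and leaving them out moved the values upward. H2-Aa became 0.397 ± 0.74, H2-Ab1 0.33 ± 0.59, H2-Eb1 0.23 ± 0.63, Cd74 0.51 ± 0.66 and H2-DMa 0.28 ± 0.50, with H2-DMb1 at −0.33 ± 0.49 and Ciita at 0.47 ± 0.67. H2-Oa became 0.93 ± 1.445 and H2-Ob 0.56 ± 1.18. The median of the 9 moved from −0.12 to 0.40 (all genes: 0.04 and 0.00), and 8 of 9 were then above 0 in place of 4. None was called: the smallest adjusted p of the 9 was 0.934 in edgeR, which called 0 of 13750 genes (0%), with 751 at an unadjusted p under 0.05 and 99 called by DESeq2. Macrophage and monocyte markers lay below 0 in this comparison for 10 of 12 genes over all 10 libraries (median −1.33, and −0.82 without libraries 9 and 10), and epithelial markers above 0 for 7 of 7 (median 2.69, and 1.23 without them). B cell markers above 0 went from 7 of 12 (median 0.12) to 11 of 12 (median 0.71) when the 2 libraries were left out, and dendritic cell markers from 4 of 12 (median −0.18) to 10 of 12 (median 0.37). T cell markers lay above 0 for 10 of 10 both ways (medians 0.76 and 1.37). edgeR called 0 markers in each of these lists, with and without the libraries. Over all 10 libraries the macrophage marker C1qa, a complement gene, was at −2.43 ± 0.64 (unadjusted p = 0.00296, adjusted p = 0.355). Their part in the class II values was not tested.

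In CD4+ T cells the C269 libraries of H2-Aa, Cd74 and H2-DMb1 all lay within the range of the controls. H2-Aa was at 1209, 921, 1118, 1010.1 and 767 CPM, Cd74 at 764, 600.4, 563, 501 and 406 and Ciita at 17.5, 21.5, 10.01, 28.7 and 21.6. H2-DMb1 was at 93.05, 98.6, 114, 161 and 105 CPM, H2-Oa at 11.4, 10.8, 6.896, 10.2 and 7.58 and H2-Ob at 18.9, 12.2, 4.45, 9.48 and 8.45. The C269 libraries were closer together than the controls for the classical chains, with an H2-Aa SD of 172 CPM against 474. The log2 fold changes were −0.24 ± 0.24 for H2-Aa, −0.02 ± 0.23 for H2-Ab1, −0.21 ± 0.27 for H2-Eb1, −0.101 ± 0.26 for Cd74, 0.04 ± 0.23 for H2-DMa, −0.097 ± 0.30 for H2-DMb1, −0.35 ± 0.52 for H2-Ob and 0.21 ± 0.29 for Ciita. H2-Oa was farthest from 0, at −0.54 ± 0.35 (unadjusted p = 0.147, adjusted p = 0.906 in edgeR). The median of the 9 was −0.10 (0.00 for all genes).

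In CD8+ T cells the errors of Cd74 and the classical chains were smaller than in the other populations. H2-Aa was at 622, 943, 600.5, 479 and 584 CPM after C269, Ciita at 6.08, 8.97, 13.2, 4.94 and 16.4 and H2-Oa at 21.3, 3.49, 25.1, 13.8 and 26.8. Cd74 was at 245, 311, 274, 191 and 229 CPM against 278, 205, 273, 337 and 491 in the controls. Its groups overlapped, with library 25 the highest control, and its log2 fold change was −0.34 ± 0.21 (unadjusted p = 0.13, adjusted p = 0.804 in edgeR). The classical chains gave 0.06 ± 0.18 (H2-Aa), 0.08 ± 0.17 (H2-Ab1) and 0.102 ± 0.17 (H2-Eb1). The editor gave 0.22 ± 0.17 (H2-DMa) and 0.21 ± 0.26 (H2-DMb1), the inhibitor −0.22 ± 0.45 (H2-Oa) and −0.76 ± 0.96 (H2-Ob), and Ciita 0.04 ± 0.53. H2-Ob had 0 counts in libraries 26 and 29 (allowing up to 1.14 and 1.48 CPM) and 19.3 CPM in library 28, and its error was the widest. Leaving out 1 library moved it from −2.18 (without library 28) to −0.44 (without library 26).

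A test of the difference between the C269 effects of any pair of populations called 0 of the 9 genes in edgeR and 0 in DESeq2. Over all genes edgeR called 1 of 14731 genes for 4T1 against CD4 (0.00679%), 1 for 4T1 against CD8 (0.00679%) and 0 for CD8 against CD4 (0%), and DESeq2 called 76 (0.474%), 617 (3.59%) and 19 (0.114%). Without libraries 9 and 10 edgeR called 0 (0%) and 1 (0.0063%) for the first and second of these, and 0 of the 9 genes. The smallest unadjusted p of the 9 was 0.278, 0.121 and 0.619, so none of the 9 had an unadjusted p under 0.05. Other genes of the pathway were called in no list either: over the lysosomal, promoter factor, interferon-gamma, lineage, turnover and costimulation lists, 0 genes passed in any population by edgeR. The legumain gene Lgmn, which also cuts the invariant chain, had −1.93 ± 0.56 in 4T1 with libraries 9 and 10 included (unadjusted p = 0.00569, adjusted p = 0.355). The lysosomal list lay below 0 there for 7 of 8 genes (median −0.90), and for 5 of 8 without the 2 libraries (median −0.58).

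**Figure D3:**
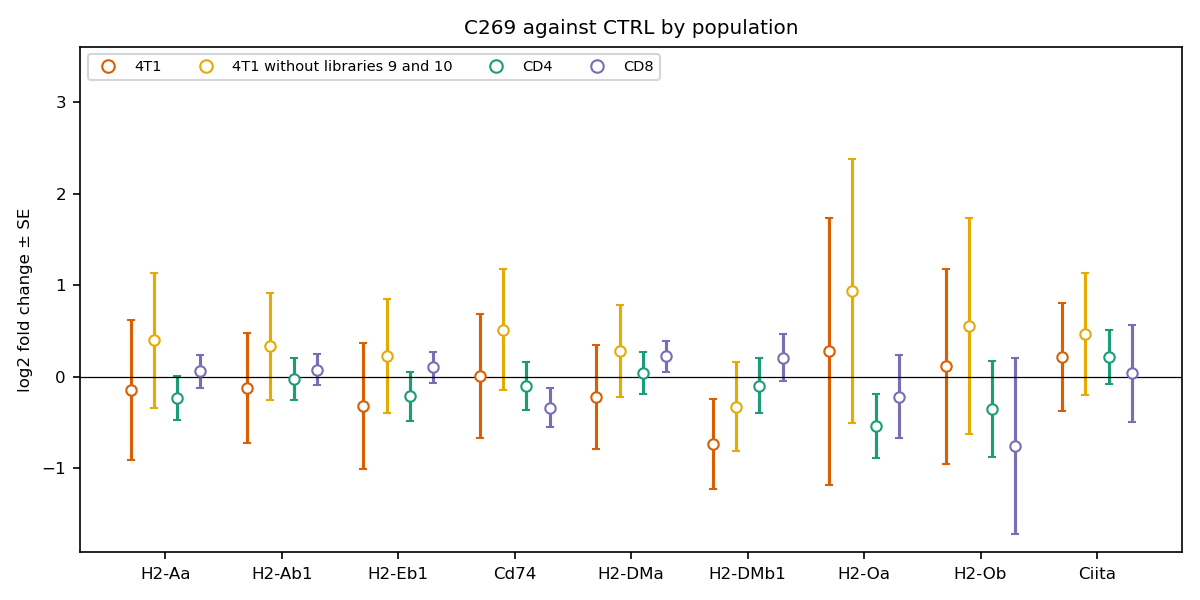
Log2 fold change ± SE (edgeR) of the 9 class II genes for C269 against control antibody in 4T1, in 4T1 without libraries 9 and 10, in CD4 and in CD8. No point has an adjusted p below 0.05, and the error bars are widest for H2-Oa and H2-Ob in 4T1.

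Within the 4T1 sort the class II genes parted into sets of libraries. Libraries 1, 3 and 7 held the highest H2-Oa (47.3, 54.2 and 85.5 CPM), H2-Ob (63.9, 84.7 and 117 CPM) and H2-DMb2 (197, 207 and 322 CPM). The B cell sums of the same libraries were 1739.8, 1697 and 2494 CPM, against 58.2 to 543 in the other 7 4T1 libraries. Library 4 held the highest H2-DMb1 (371 CPM) and H2-DMa (258 CPM) of the 30 libraries, with H2-Oa at 0.502 and H2-Ob at 0.753 CPM, the lowest B cell sum of the 4T1 libraries (58.2 CPM) and the highest macrophage sum (8178 CPM). H2-Aa was at 2313 to 4935 CPM in these 4 libraries, so high classical chain levels came with H2-O levels at both ends of its range.

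The share of H2-O in the summed counts of H2-O and H2-DM, a ratio within a library, was computed next. H2-DM was taken here as H2-DMa plus H2-DMb1, and H2-DMb2 was left out. So defined, the share was 23.6%, 6.69%, 25.996%, 0.199% and 3.59% in libraries 1 to 5 and 15.5%, 32.0%, 7.39%, 15.2% and 17.4% in libraries 6 to 10. The shares ran from 0.199% in library 4 to 32.0% in library 7, the ends of the range over all 30 libraries. In CD4 CTRL, library 14 had a share of 1.40%, the lowest of the T cell libraries. That library also held the highest H2-DMb1 (251 CPM) and macrophage sum (4224 CPM) and the lowest B cell (46.5 CPM) and T cell (1564 CPM) sums of its group. High shares also came with low B cell sums in CD8 CTRL, which had the highest mean share of the 6 groups, 19.7% ± 6.93 (SD, n = 5), and B cell sums of 49.5 to 95.9 CPM. There library 22 had a share of 29.8% with a B cell sum of 49.5 CPM. H2-DMb2 made up 50.6% of H2-DMb counts in library 1, 50.3% in library 3 and 62.6% in library 7, and 4.82% in library 4. Counting H2-DMb2 as H2-DM would lower the H2-O shares, above all in libraries 1, 3 and 7. The order of the libraries with H2-DMb2 counted was not computed. The part of B cells and macrophages in these shares was not tested.

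**Figure D4:**
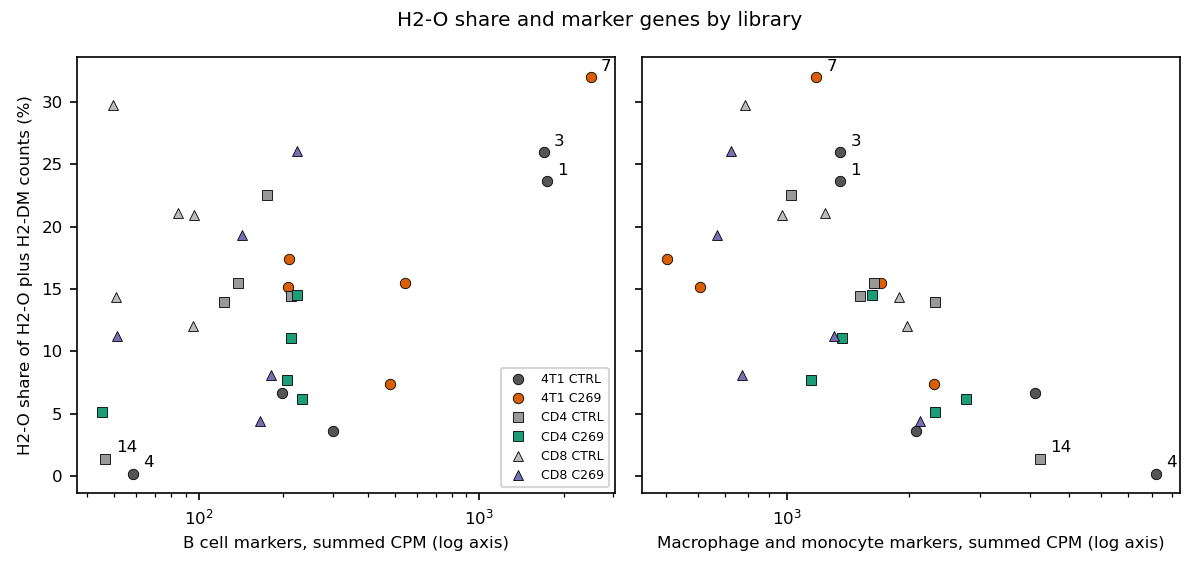
Share of H2-O in the counts of H2-O plus H2-DM (%, vertical) against the summed CPM of 12 B cell markers (left) and 12 macrophage and monocyte markers (right, both log axes), 1 point per library, circles for 4T1, squares for CD4 and triangles for CD8. H2-DM is H2-DMa plus H2-DMb1, without H2-DMb2. Libraries 1, 3 and 7 lie at 23.6% to 32.0% with the highest B cell sums, and libraries 4 and 14 at 0.199% and 1.40% with the highest macrophage sums, while library 22 of CD8 CTRL lies at 29.8% with a B cell sum of 49.5 CPM.

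Likeness was measured as Pearson's r of log2(CPM + 1) after taking out each group's mean, over 28 libraries (all but 9 and 10), against the mean of the 4 abundant genes H2-Aa, H2-Ab1, H2-Eb1 and Cd74. These values share libraries and depth and are a description. Those 4 gave 0.983 to 0.989, each being part of the mean. H2-DMa gave 0.869, H2-DMb1 0.800, Ciita 0.758, H2-Oa 0.500 and H2-Ob 0.275, against a median of 0.0524 over 11063 genes. For Ciita, r was 0.922 over the 8 4T1 libraries, 0.471 over the 10 CD4 libraries and 0.440 over the 10 CD8 libraries. H2-Oa turned sign, with 0.770 in 4T1, −0.511 in CD4 and −0.727 in CD8. H2-DMa gave 0.923 in 4T1 and 0.891 in CD4 but −0.106 in CD8, and H2-DMb1 gave 0.834, 0.896 and 0.664. H2-Ob gave 0.542 in 4T1, −0.417 in CD4 and 0.039 in CD8. Outside the 9, the 8 most alike were H2-Ea (0.907), Ifi30 (0.888), Ncf1 (0.849), Nrros (0.835), Cerk (0.808), Hcls1 (0.800), Trim11 (0.789) and Fen1 (0.779). These 8 genes gave 0.894 to 0.978 over the 4T1 libraries used. Within CD4 they ran from −0.428 (Trim11) and 0.118 (Fen1) to 0.896 (Ifi30), and within CD8 from 0.289 (Cerk) to 0.706 (Ncf1). H2-Ea was at 0.455 within CD8, and at 0.709 over all 30 libraries. Among pairs, H2-DMa and H2-DMb1 gave 0.860, H2-Oa and H2-Ob 0.683, H2-Ob and H2-DMb2 0.706, and H2-DMb1 and H2-Ob −0.220.

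H2-Ea, which encodes the alpha chain of I-E and is annotated as a polymorphic pseudogene because some mouse haplotypes do not express it, had 0 counts in libraries 9 and 10. A count of 0 allows up to 3 counts, or 0.674 and 0.580 CPM there, counting error only. H2-Eb1, its partner, was at 364 and 235 CPM in the same libraries. In the other 28 libraries H2-Ea was at 184 to 1509 CPM and its ratio to H2-Eb1 at 0.662 to 1.502, so libraries 9 and 10 were alone in holding the beta chain without the alpha chain. H2-Ea was higher in 4T1 than in CD8 CTRL by 1.45 ± 0.42 (adjusted p = 0.0176), as H2-Eb1 was. The haplotype of the mice is not given in the sources used here, and its part was not tested.

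**Figure D5:**
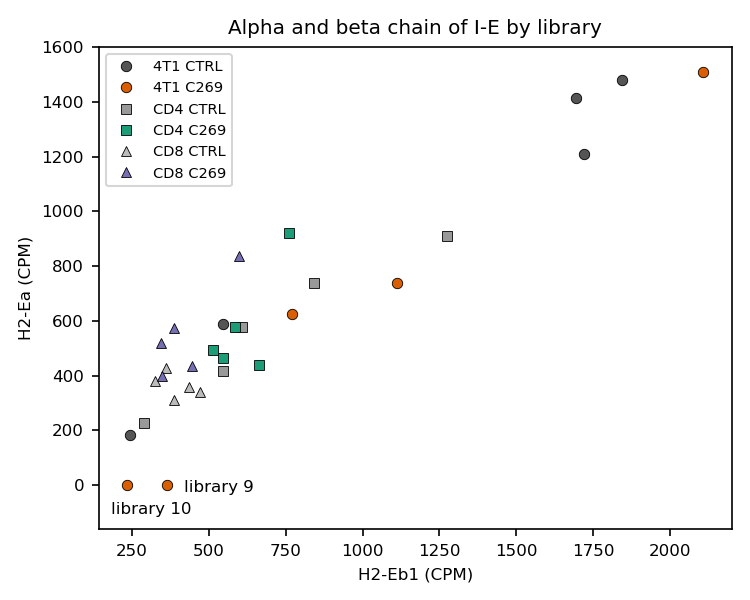
CPM of H2-Ea (vertical) against H2-Eb1 (horizontal) in the 30 libraries, circles for 4T1, squares for CD4 and triangles for CD8. In 28 libraries H2-Ea is at 0.662 to 1.502 times H2-Eb1, while libraries 9 and 10 lie at 0 with H2-Eb1 at 364 and 235 CPM.

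In CD8+ T cells, ratios between class II genes were compared between treatments as a description, with no test. Cd74 over H2-Ab1 was 0.883 ± 0.183 (SD, n = 5; 0.613 to 1.09) in CD8 CTRL and 0.668 ± 0.0461 (0.606 to 0.719) in CD8 C269. H2-Ea over H2-Eb1 was 0.941 ± 0.218 (0.723 to 1.18) in CD8 CTRL and 1.30 ± 0.229 (0.978 to 1.502) in CD8 C269. The groups overlapped in both ratios. H2-Ea itself was at 428, 380.2, 311, 359 and 342 CPM in CD8 CTRL and 436, 837, 572, 519 and 400.1 in CD8 C269, with a log2 fold change of 0.603 ± 0.18 (unadjusted p = 0.00509, adjusted p = 0.739 in edgeR). H2-DMb2 was at 11.8, 9.34, 9.58, 6.16 and 9.299 and 1.14, 38.9, 36.4, 50.4 and 21.3 CPM, with a log2 fold change of 1.68 ± 0.60 (unadjusted p = 0.0136, adjusted p = 0.739). Neither passed the adjusted test, and these ratios were looked at after the values were seen. The B cell list had 8 of 9 tested markers above 0 in the same comparison (median 0.77) with 0 called, and sums of 49.5 to 95.9 CPM in CD8 CTRL and 51.3 to 224 in CD8 C269. Other lists lay above 0 as well: 5 of 5 fibroblast (median 1.56), 5 of 5 epithelial (median 1.56) and 4 of 4 neutrophil markers (median 0.96). Macrophage and monocyte markers lay below 0 for 8 of 12 (median −0.24) and dendritic cell markers for 5 of 8 (median −0.05). None of these lists held a call. Ms4a1 (CD20) was at 5.40 CPM on average in CD8 CTRL and 35.4 in CD8 C269 (unadjusted p = 0.000126, adjusted p = 0.574). The part of any of these cell types in the class II ratios was not tested.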

How the data were processed

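The deposited tables, 1 per population, hold 55408 features, joined here by gene ID, and the 30 library columns are raw counts per gene that the authors deposited. Per the submitters' processing notes, reads were checked with FastQC, counted with featureCounts and compared with DESeq2. The sources used here name no aligner and no versions. The notes name mm9, while 99.6% of gene starts matched GENCODE M21 (GRCm38), which was used for coordinates and exon lengths, with gene names from the tables. Per the file headers, the tables also hold baseMean (a signal, the mean normalised count), log2 fold changes of CTRL over C269 with their SE, a statistic headed stat (a score) and p-values, all the authors'. Library columns carry numbers only. They were placed in groups because each numbered condition column equals the sum of 5 library columns, and the sample titles carry the condition number.

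Computed here: CPM over gene counts, after 7 ribosomal RNA features (3.05% of counts) were left out, and edgeR 4.0.16 quasi-likelihood tests (R 4.3.3, TMM, filterByExpr, only the groups compared, all 6 for differences between effects), adjusted by Benjamini-Hochberg over all genes at 0.05. All 9 genes passed the filter in all 9 comparisons. SE is the fold change over the square root of F. Depth was 2005579 to 5176494 counts, and floors cover counting error only. DESeq2 1.42.0, RLE factors, no filter, a fit of all 30 libraries, leaving out each library, and leaving out libraries 9 and 10 were the alternatives. Named genes were the 9, the called or smallest-p genes of each pathway and marker list, and the 8 most alike by r among genes of 5 CPM or more. The genes and lists were chosen with earlier results of these data known, and support nothing by being listed.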

Additional observations from a re-analysis of the deposited data

Results flagged for a closer look

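In 54 gene and group combinations of 5 libraries, 6 had a highest library whose gap to the next exceeded 0.71 of the group's range (Dixon's 95% critical value, which chance exceeds in about 5% of groups). In 4T1 C269 library 7 stood out for H2-Oa (85.5 CPM), H2-Ob (117 CPM) and Ciita (127 CPM). The others were H2-DMa in library 19 of CD4 C269 (138 CPM), H2-Ob in library 28 of CD8 C269 (19.3 CPM) and Ciita in library 14 of CD4 CTRL (30.3 CPM).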

How the results depend on the processing

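No paired analysis was possible because the library columns carry no replicate letter. Over all genes, C269 calls were 998 in DESeq2 and 606 in a fit of all 30 libraries for 4T1 (0 in edgeR), 16 in DESeq2 and 83 with no filter for CD4 (0), and 15, 0 and 162 in DESeq2, the fit of all 30 and no filter for CD8 (1). 4T1 against CD4 CTRL gave 2220 calls in DESeq2 (1047 in edgeR), and CD8 against CD4 CTRL 1032 in the fit of all 30 (2823). Of the 9 genes, 1 was called for 4T1 against CD4 CTRL by DESeq2, the fit of all 30 and no filter (0 in edgeR), and for CD8 against CD4 CTRL 0 in the fit of all 30 and 5 with no filter (3). Differences between C269 effects gave 76 (DESeq2), 6 (no filter) and 0 (without libraries 9 and 10) for 4T1 against CD4, 617 and 58 (DESeq2, no filter) for 4T1 against CD8, and 19 (DESeq2) for CD8 against CD4. The cause was not tested. Leaving out 1 library gave 407 to 1183 calls for 4T1 against CD4 CTRL (686, 407, 418 and 426 without libraries 11, 12, 13 and 15), with 0 to 3 of the 9 genes. It gave 6 to 7 of the 9 for 4T1 against CD8 CTRL and 1 to 5 of the 9 for CD8 against CD4 CTRL. For C269 it gave 0 to 10 calls in CD4 (10 without library 15) and 0 to 1 in CD8. Differences between effects gave 0 to 16, 1 to 220 and 0 to 1 calls for 4T1 against CD4, 4T1 against CD8 and CD8 against CD4 (the first 16 and 10 without libraries 6 and 7; the second 220, 152, 92, 84, 41 and 10 without libraries 6, 7, 28, 8, 1 and 30). Without libraries 9 and 10 the C269 values in 4T1 changed sign for H2-Aa (0.40), H2-Ab1 (0.33), H2-Eb1 (0.23) and H2-DMa (0.28). Uncalled values that changed sign when 1 library was left out were, for C269 in 4T1, H2-Aa (−0.85 to 0.17), H2-Ab1 (−0.60 to 0.10), Cd74 (−0.60 to 0.25), H2-DMa (−0.67 to 0.0081), H2-Oa (−1.09 to 1.05), H2-Ob (−1.08 to 0.83) and Ciita (−0.37 to 0.49). In CD4 they were H2-Ab1 (−0.20 to 0.19), H2-Eb1 (−0.42 to 0.057), Cd74 (−0.28 to 0.15), H2-DMa (−0.14 to 0.24) and H2-DMb1 (−0.30 to 0.29). In CD8 they were H2-Aa (−0.11 to 0.16), H2-Ab1 (−0.011 to 0.18), H2-Eb1 (−0.042 to 0.18), H2-Oa (−0.40 to 0.034) and Ciita (−0.23 to 0.34), and between 4T1 and CD8 CTRL H2-Oa (−0.68 to 0.41). With ribosomal RNA in the totals, 54 of 54 mean levels moved by less than 1 SD. At this depth H2-Oa and H2-Ob rested on few counts in several libraries.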
